A study of Mus musculus with 8 samples.

Results

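The genes examined here encode the enzymes that attach glutathione or sulfate to other molecules, together with the glutathione peroxidases and the γ-glutamyl transferases. They were taken by name from the protein-coding genes of the deposited table: cytosolic and kappa glutathione S-transferases (Gsta, Gstk, Gstm, Gsto, Gstp, Gstt and Gstz), microsomal glutathione S-transferases (Mgst), sulfotransferases (Sult), γ-glutamyl transferases (Ggt) and glutathione peroxidases (Gpx). Of 47 such names, the 42 genes with at least 20 reads over the 8 libraries were kept, out of 26893 genes listed. The names left out, Gpx2, Gpx5, Gstt4, Sult2a3 and Sult4a1, had 2 to 13 reads each. Of the 42 genes, 36 passed the filter on low counts and were tested. Gsta1, Gstm3, Gstp3, Mgst2, Sult6b1 and Sult6b2 did not pass it and had 20 to 126 reads each. A scarce gene can pass such a filter through its higher group alone, so counts over the 36 genes are a description.

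Glutathione S-transferases join the tripeptide glutathione to electrophilic drugs and lipid breakdown products, which makes them soluble and less reactive. In the kidney, γ-glutamyl transferase on the brush border of the proximal tubule and then dipeptidases trim such conjugates to cysteine conjugates, and an acetylation step yields the mercapturates that appear in urine. Sulfotransferases use the activated sulfate donor PAPS to sulfate phenols, catecholamines and steroids. Glutathione peroxidases spend glutathione to reduce peroxides, and several of them carry selenocysteine in the active site.

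RNA selected for poly(A) tails from whole kidneys of 45-day-old mice was sequenced in 4 Tsc1/Foxi1-dKO libraries (labelled Tsc1f/f/Aqp2 Cre/Foxi1 knockout, here dKO1 to dKO4) and 4 WT libraries (labelled C57BL/6, here WT1 to WT4). In the dKO mice, Aqp2-Cre removes the floxed Tsc1 gene, a brake on mTORC1, from principal cells of the collecting duct, and the transcription factor gene Foxi1, which intercalated cells require, is knocked out as well. The labels do not say that the WT mice carried Cre or the floxed allele. Most RNA of a whole kidney comes from cells in which Aqp2-Cre is not active, and in such bulk samples fewer cells of a type and less RNA per cell cannot be told apart.

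Libraries held 17173194 to 24973213 counted reads in dKO and 14791687 to 19179034 in WT. Levels below are in CPM, the count scaled to library size after TMM, or in deposited FPKM where genes are compared with each other, since FPKM is per transcript length. Foxi1 was at 1.33 to 1.56 CPM in dKO1, dKO2 and dKO3, at 45.9 CPM in the library labelled dKO4, and at 26.6 to 33.6 CPM in WT, so dKO4 went against its label. The summed level of 8 intercalated cell markers was 475 CPM in dKO4, 5.20 to 15.4 CPM in dKO1 to dKO3 and 318 to 389 CPM in WT. dKO1 also stood apart. It had 0 reads of 4 Y-linked genes and 11083 reads of Xist, against 2864 to 4380 and 2 to 11 reads in the other dKO libraries and 2189 to 2857 and 0 to 4 reads in WT. Its male-biased kidney genes (8 genes) summed to 2958 CPM, while they summed to 20267 to 22516 CPM in dKO2 to dKO4 and 27985 to 32168 CPM in WT, and its female-biased kidney genes (5 genes) to 785 CPM, against 182 to 309 CPM in dKO2 to dKO4 and 143 to 156 CPM in WT. Each comparison below is therefore also given without dKO1, without dKO4 or without both where that changes it.

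The peroxidases were by far the most abundant of these transcripts. Gpx3, the secreted plasma peroxidase made by the proximal tubule (chromosome 11, 54902453 to 54910377), averaged 13762 ± 1848 FPKM in dKO and 11341 ± 615 FPKM in WT (SD, n = 4 each). It ranked 3 of all genes by mean FPKM and took 2.23% to 3.03% of all counted reads in dKO and 1.90% to 2.13% in WT. Gpx3 made up 88.5% to 91.8% of the summed Gpx FPKM in dKO libraries and 86.0% to 87.8% in WT libraries. Gpx1, the cytosolic and mitochondrial enzyme (chromosome 9), followed with 1220 ± 110 FPKM in dKO and 1326 ± 147 FPKM in WT. Gpx4, which reduces lipid hydroperoxides in membranes and guards against ferroptosis (chromosome 10), was at 296 ± 54.0 FPKM in dKO and 329 ± 46.4 FPKM in WT. Gpx6 (chromosome 13) was at 23.98 ± 13.9 FPKM in dKO and 16.9 ± 2.21 FPKM in WT, and the endoplasmic reticulum enzymes Gpx8 and Gpx7 were at 8.0 and 1.5 FPKM in dKO and 6.82 and 1.24 FPKM in WT.

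The active-site codon divides these 6 peroxidases, which met the read minimum, and it is shown because it coincides with the order of levels among them. The 27 bases below are coding sequence of the first transcript of each gene in GENCODE M21 (GRCm38), with the codon of the peroxide-reducing residue in capitals. TGA, read as selenocysteine, stands there in the 3 most abundant members, and a cysteine codon in the 3 scarcer ones.
Gpx1: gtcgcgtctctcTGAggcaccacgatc
Gpx3: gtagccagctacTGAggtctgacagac
Gpx4: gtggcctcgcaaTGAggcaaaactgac
Gpx6: gtggcatccttcTGTggcctgacagct
Gpx7: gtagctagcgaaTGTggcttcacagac
Gpx8: gtggctagtgacTGCcgcttcacagac
These windows lie at chr9:108339439-108339465 in exon 1 (Gpx1), chr11:54907244-54907270 in exon 2 (Gpx3), chr10:80054725-80054751 in exon 3 (Gpx4), chr13:21313765-21313791 in exon 2 (Gpx6), chr4:108403418-108403444 in exon 2 on the minus strand (Gpx7) and chr13:113045649-113045675 in exon 2 on the minus strand (Gpx8). The 3 TGA members had mean levels of 312 FPKM or more over the 8 libraries and the 3 cysteine members 20.4 FPKM or less, an ordering over 6 genes that carries no test. It holds only for the peroxidases that met the read minimum. Gpx2 (6 reads) and Gpx5 (2 reads) were scarcer than all of these, and their codons were not examined, so the ordering cannot be stated for the whole family.

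Among the other families, Ggt1 (407 FPKM on average over the 8 libraries), Gstm1 (331 FPKM) and Sult1d1 (190 FPKM), which sulfates catecholamines in mice, led. Gstp1 (127 FPKM), Gsta2 (116 FPKM), Mgst3 (72.3 FPKM), Gstm5 (68.5 FPKM), Gstt1 (56.3 FPKM), Gstt2 (53.4 FPKM), Gstz1 (51.2 FPKM) and Sult1c2 (48.4 FPKM) came next. The leading members of the omega and kappa classes were Gsto1 (17.7 FPKM) and Gstk1 (32.0 FPKM). At the low end, Sult2b1, Ggt7, Sult5a1 and Gstm6 were tested at 0.298 to 0.651 FPKM. Summed over the cytosolic and kappa classes, glutathione S-transferase FPKM ran from 769 to 1430 in dKO and from 773 to 1046 in WT, with dKO1 the only library above the WT range.

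**Figure D1:**
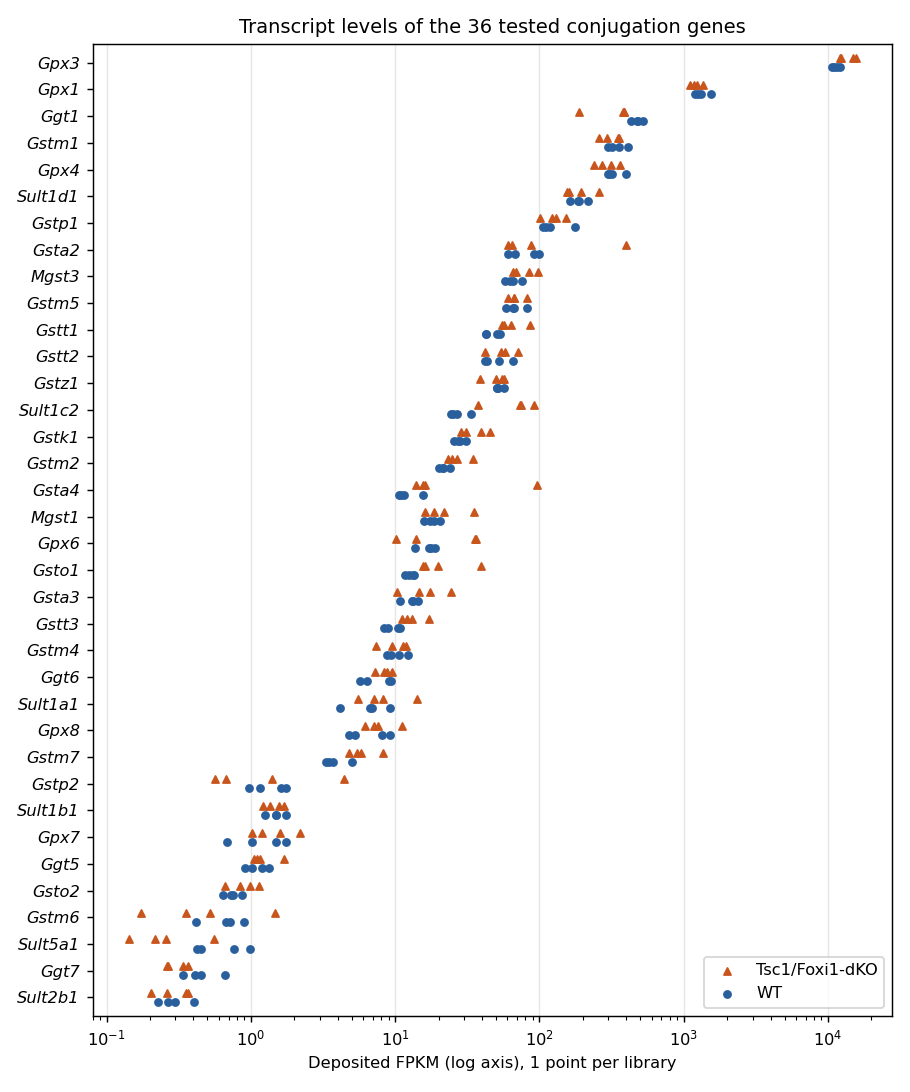
Deposited FPKM of the 36 tested conjugation genes on a log axis, with 1 triangle per dKO library and 1 circle per WT library, ordered by mean level. Levels span from Gpx3 at a mean of 12551 FPKM to Sult2b1 at 0.298 FPKM, and the groups overlap for most genes.

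The comparison of dKO with WT asks which of these transcripts differ between kidneys without Foxi1 and with Tsc1 removed from principal cells and normal kidneys. With all 8 libraries, 1 of the 36 genes, Sult1c2, was higher in dKO at an adjusted p under 0.05 (edgeR quasi-likelihood test, two-sided, Benjamini-Hochberg over 15912 genes), where 1.16% of all tested genes were. None was lower, where 1.12% of all genes were. DESeq2 called 2 higher, Gsto1 and Sult1c2 (3.22% of all genes), and 0 lower (2.88%), but gave no adjusted p for Gsta2 and Gsta4. In limma-voom 0 were lower as well. At an unadjusted p under 0.05, 8 were higher and 2 lower, which is 27.8% of the 36 genes against 16.8% of all genes. Without dKO1, 1 was higher (Gsto1, with 1.88% of all genes) and 0 lower (2.02%). Without dKO4, 1 was higher (Sult1c2, with 0.969%) and 0 lower (1.14%). Without both, 0 were higher (1.42%) and 1 was lower (Sult5a1, with 1.76%). At an unadjusted p under 0.05, 7 were higher and 3 lower without dKO1 (27.8% of the 36 genes against 15.4% of all genes), 13 higher and 2 lower without dKO4 (41.7% against 15.8%), and 8 higher and 2 lower without both (27.8% against 12.9%). A single call is 2.78% of the 36 genes, and calls at an adjusted p under 0.05 were rare in both sets.

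The median log2 fold change over the 36 genes was 0.26, with 25 positive (69.4%) and 11 negative. Over all tested genes the median was 0.01, with 51.7% positive. Without dKO1 the median of the 36 was 0.05, with 22 positive (61.1%, against 50.7% of all genes) and 14 negative. Without dKO4 it was 0.31, with 28 positive (77.8% against 51.1%) and 8 negative. Without both it was 0.08, with 23 positive (63.9% against 50.2%) and 13 negative. In 5 of the 36 genes (13.9%) every dKO library lay above every WT library, as did 6.06% of all tested genes. These were Gpx3, Gsto1, Gstt1, Gstt3 and Sult1c2. Ggt1 alone (2.78%) was below WT in every dKO library, where 6.06% of all genes were.

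**Figure D2:**
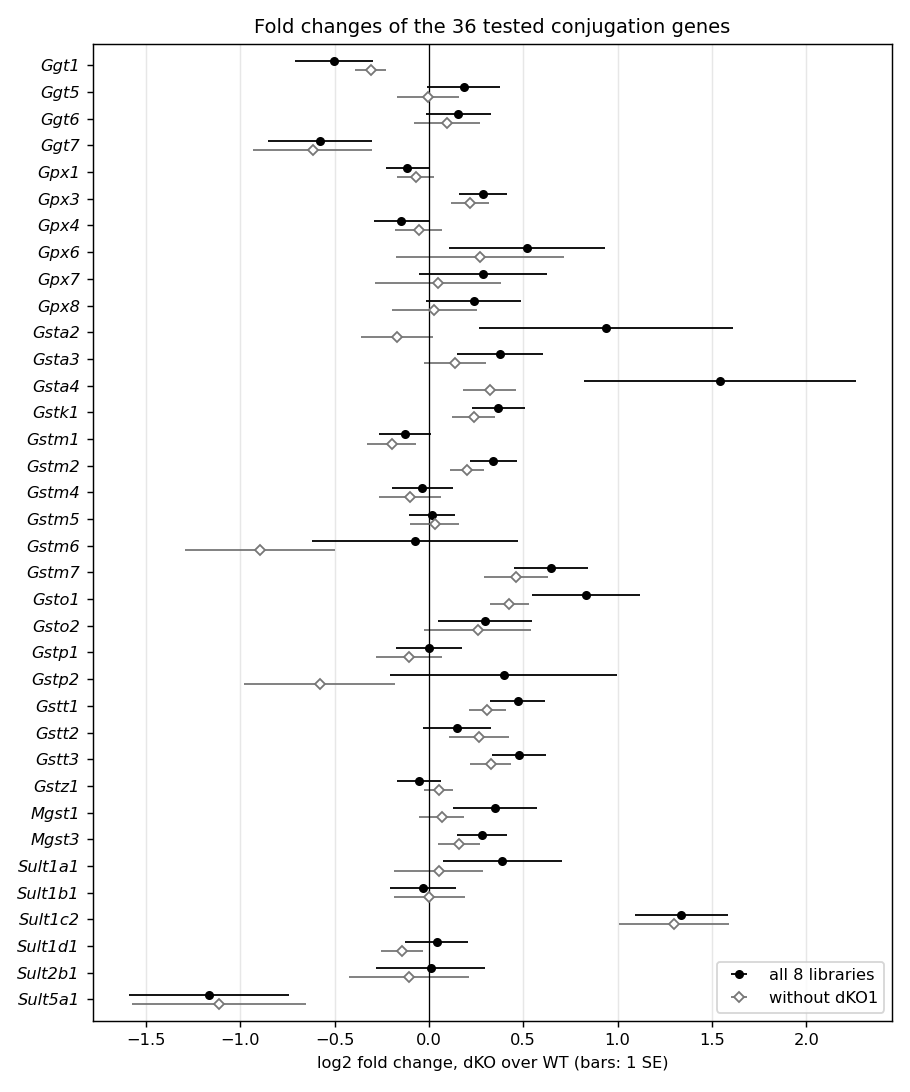
log2 fold change of dKO over WT for the 36 tested genes by family, with all 8 libraries (filled circles) and without dKO1 (open diamonds). Bars are 1 SE. Gsta2 and Gsta4 move most when dKO1 is left out, to -0.17 and 0.32, while Sult1c2 stays at 1.30.

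Sult1c2, a phenol sulfotransferase of kidney and stomach (chromosome 17, 53829637 to 53846339, minus strand), was at 139, 135, 69.7 and 171 CPM in dKO1 to dKO4 and at 62.2, 45.0, 46.3 and 49.8 CPM in WT1 to WT4. Every dKO library was above every WT library, but dKO3 exceeded WT1 only narrowly and dKO4, with Foxi1 above the WT range, was the highest. The gene rose 2.53-fold (log2 fold change 1.34 ± 0.25, SE; edgeR adjusted p = 0.0301). The call was kept without dKO4 (1.17, adjusted p = 0.0463) and without dKO3 (1.54, adjusted p = 0.000533). It was lost without dKO1 (1.30, adjusted p = 0.0693), without dKO2, without each WT library and without dKO1 and dKO4 together (1.01, adjusted p = 0.101). The call was also lost with all libraries and no filter on low counts (1.34, adjusted p = 0.0696). Over the 17 alternatives run its adjusted p lay between 1.88e-06 and 0.115, and all 17 kept the direction.

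Sult5a1 (chromosome 8) was scarce, at 1.15, 0.64, 0.97 and 2.48 CPM in dKO1 to dKO4 and at 4.40, 3.37, 2.0 and 1.87 CPM in WT1 to WT4. The library labelled dKO4 overlapped the WT range and the other 3 dKO libraries were below it. The log2 fold change was -1.17 ± 0.42 (adjusted p = 0.199) with all libraries and -1.83 ± 0.43 (adjusted p = 0.0452) without dKO1 and dKO4. At 310 reads in all, it was among the least covered of the tested genes.

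Sult1d1, the most abundant sulfotransferase (chromosome 5), had 646, 479, 398 and 383 CPM in dKO1 to dKO4 and 456, 402, 534 and 462 CPM in WT1 to WT4. dKO1 was above all other libraries and the remaining dKO libraries lay within or below the WT range, so the log2 fold change of 0.04 ± 0.17 became -0.14 ± 0.11 without dKO1 (adjusted p = 0.939 and 0.656). Sult1a1, which sulfates phenols, had 8.43 to 21.5 CPM in dKO and 6.29 to 13.9 CPM in WT. Sult1b1 (3.41 to 4.73 CPM in dKO, 3.48 to 4.91 CPM in WT) and the cholesterol sulfotransferase Sult2b1 (0.81 to 1.46 CPM in dKO, 0.90 to 1.59 CPM in WT) had overlapping groups.

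Gsto1, a glutathione S-transferase of the omega class with thiol transferase and dehydroascorbate reductase activity (chromosome 19, 47854970 to 47864790), was at 77.7, 30.7, 39.0 and 31.9 CPM in dKO1 to dKO4 and at 26.9, 26.05, 24.7 and 23.2 CPM in WT1 to WT4. All dKO libraries were above WT, and dKO1 was 2.30 times the mean of the other dKO libraries. With all 8 libraries the log2 fold change was 0.83 ± 0.29 and did not pass in edgeR (adjusted p = 0.189), though it did in DESeq2 (adjusted p = 0.0378). Without dKO1 both the change and its SE were smaller, 0.43 ± 0.10, and Gsto1 rose with an adjusted p of 0.0489. By edgeR it did not pass without dKO4 (0.97, adjusted p = 0.154) or without dKO1 and dKO4 together (0.47, adjusted p = 0.0674). Over 17 alternatives the adjusted p ran from 0.0378 to 0.365, with 2 past the threshold. Its neighbour Gsto2, the next gene on the chromosome, had 1.04 to 1.77 CPM in dKO and 1.0 to 1.34 CPM in WT.

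Gstt1 and Gstt3, glutathione S-transferases of the theta class, lie side by side on chromosome 10 (75783813 to 75798584 and 75774115 to 75781414). Gstt1 was at 132, 87.2, 98.2 and 84.3 CPM in dKO1 to dKO4 and at 81.9, 77.0, 65.6 and 65.4 CPM in WT1 to WT4. Gstt3 was at 66.6, 46.5, 50.5 and 42.9 CPM in dKO1 to dKO4 and at 40.7, 41.4, 34.3 and 32.0 CPM in WT1 to WT4. In both genes the 4 dKO libraries lay above the 4 WT libraries, with dKO1 highest and dKO4 lowest of the dKO. The log2 fold changes were 0.47 ± 0.14 (adjusted p = 0.133) and 0.48 ± 0.14 (adjusted p = 0.125), and neither passed in any of the 17 alternatives. Gstt2 from the same cluster had 175, 295, 227 and 240 CPM in dKO1 to dKO4 and 275, 217, 180 and 174 CPM in WT1 to WT4. There dKO1 was the lowest dKO library and the groups overlapped (0.15 ± 0.18).

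The alpha class depended on dKO1. Gsta4, which conjugates the lipid peroxidation product 4-hydroxynonenal (chromosome 9), was at 122, 17.8, 20.5 and 19.8 CPM in dKO1 to dKO4 and at 19.8, 14.7, 13.4 and 14.02 CPM in WT1 to WT4. Gsta2 was at 471, 71.5, 103 and 77.1 CPM in dKO1 to dKO4 and at 80.5, 117, 108 and 71.8 CPM in WT1 to WT4. dKO1 was 6.31 times the mean of the other dKO libraries for Gsta4 and 5.62 times for Gsta2. For Gsta2 the other dKO libraries lay at or within the WT range, and for Gsta4 they overlapped it at the upper end. The log2 fold changes of 1.54 ± 0.72 (Gsta4, adjusted p = 0.350) and 0.94 ± 0.67 (Gsta2, adjusted p = 0.551) became 0.32 ± 0.14 and -0.17 ± 0.19 without dKO1. Gsta1, not tested for its few reads, was at 4.2 CPM in dKO1, 0.12 to 0.52 CPM in dKO2 to dKO4 and 0.06 to 0.28 CPM in WT. Gsta3 had 106, 63.7, 76.0 and 45.0 CPM in dKO1 to dKO4 and 46.9 to 62.5 CPM in WT.

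The other cytosolic classes showed smaller differences. Gstm1, the most abundant mu-class gene (chromosome 3), had 381 to 531 CPM in dKO and 442 to 605 CPM in WT, and Gstm5 had 77.3 to 105 CPM in dKO and 74.9 to 105 CPM in WT. Of the 6 tested mu-class genes, which sit in 1 cluster on chromosome 3, 3 had positive and 3 negative log2 fold changes, with a median of -0.01. Gstm7 had the largest at 0.65 ± 0.20 (adjusted p = 0.130), with 7.76 to 13.2 CPM in dKO and 5.32 to 8.02 CPM in WT. Gstp1 (chromosome 19) had 76.9 to 117 CPM in dKO and 80.4 to 133 CPM in WT, and its log2 fold change of -0.00 ± 0.18 changed sign under 7 of the 17 alternatives. Gstk1, the kappa-class enzyme of mitochondria and peroxisomes (chromosome 6), had 67.0, 45.5, 57.7 and 42.5 CPM in dKO1 to dKO4 and 46.0, 41.2, 40.2 and 37.7 CPM in WT1 to WT4 (0.37 ± 0.14, adjusted p = 0.22). Gstz1, the maleylacetoacetate isomerase of tyrosine breakdown (chromosome 12), had 200, 289, 282 and 256 CPM in dKO1 to dKO4 and 257 to 288 CPM in WT (-0.05 ± 0.12). The membrane-bound Mgst3 (chromosome 1) had 108, 75.8, 92.7 and 72.4 CPM in dKO1 to dKO4 and 63.8 to 83.1 CPM in WT (0.28 ± 0.13, adjusted p = 0.33). Mgst1 had 32.9 to 71.4 CPM in dKO and 32.1 to 41.4 CPM in WT.

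**Figure D3:**
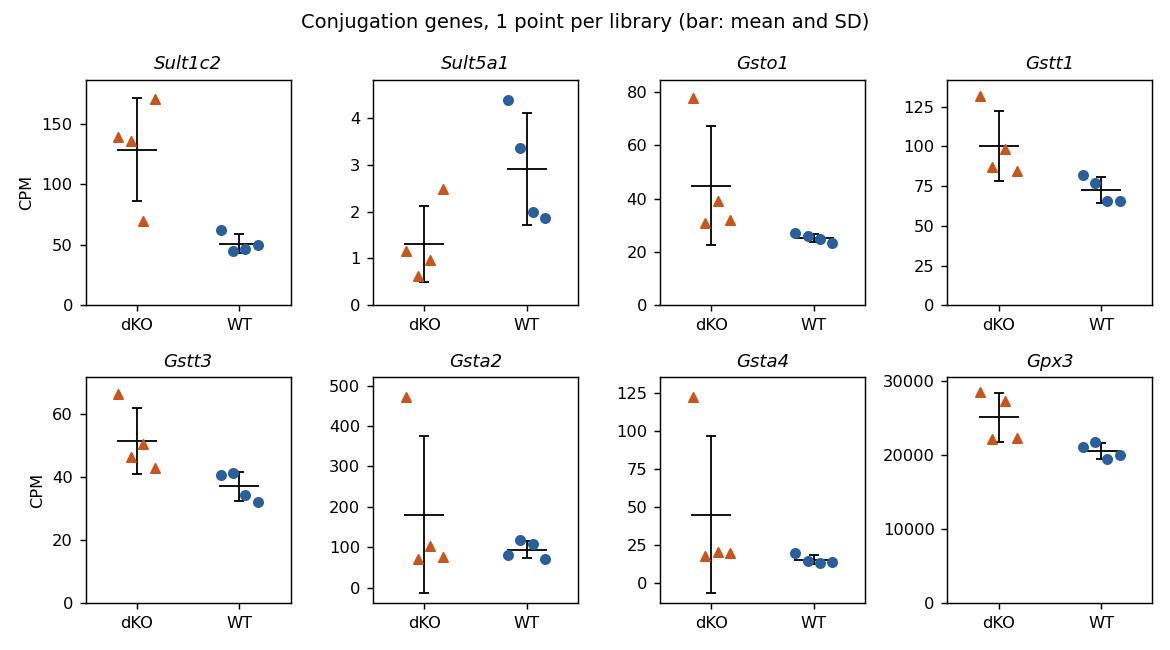
CPM of 8 conjugation genes, with 1 point per library and a bar for the mean and SD of each group, dKO left (points in the order dKO1 to dKO4) and WT right (WT1 to WT4). All dKO points of Sult1c2, Gsto1, Gstt1, Gstt3 and Gpx3 are above WT. In Gsta2 and Gsta4 the dKO mean is carried by dKO1, at 471 and 122 CPM.

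Among the peroxidases, Gpx3 had 28596, 22112, 27347 and 22316 CPM in dKO1 to dKO4 and 21144, 21834, 19423 and 19949 CPM in WT1 to WT4. All dKO values were above WT, with dKO2 and dKO4 close to the highest WT library. The log2 fold change was 0.29 ± 0.13 (adjusted p = 0.286) and 0.22 ± 0.10 without dKO1 (adjusted p = 0.34). Gpx1 had 1604, 1799.9, 1969.9 and 1696 CPM in dKO1 to dKO4 and 1737 to 2209.7 CPM in WT (-0.11 ± 0.11). Gpx4 had 412, 542, 627 and 469 CPM in dKO1 to dKO4 and 516 to 683 CPM in WT (-0.15 ± 0.15). Gpx6 split the dKO group, at 49.2 and 49.7 CPM in dKO1 and dKO3 and 19.2 and 13.9 CPM in dKO2 and dKO4, against 18.8 to 25.95 CPM in WT (0.52 ± 0.41).

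Ggt1, which starts the breakdown of glutathione and its conjugates on the proximal tubule brush border (chromosome 10, 75561604 to 75586200), was at 649, 1333, 1319.9 and 1308 CPM in dKO1 to dKO4 and at 1651, 1788, 1612 and 1486 CPM in WT1 to WT4. All dKO libraries were below WT, dKO1 at 0.49 times the mean of the other 3, which lay close together. The log2 fold change was -0.50 ± 0.21 (adjusted p = 0.254) with all libraries and -0.31 ± 0.08 (adjusted p = 0.0707) without dKO1, and it did not pass in any of 17 alternatives. Ggt7, Ggt6 and the leukotriene-cleaving Ggt5 had overlapping groups, at 0.87 to 1.21, 13.3 to 17.4 and 6.30 to 10.2 CPM in dKO and 1.11 to 2.17, 10.4 to 17.2 and 5.40 to 7.89 CPM in WT.

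Across the 36 genes dKO1 was the library farthest from WT. Its median log2 distance from the WT mean was 0.60, against -0.02, 0.18 and -0.08 in dKO2, dKO3 and dKO4 and -0.09 to 0.10 in the WT libraries, while the median over all tested genes lay between -0.00 and 0.01 in every library. dKO1 had 8 of the 36 genes more than 2-fold above the WT mean and 1 more than 2-fold below. The counts above and below were 1 and 2 in dKO2, 1 and 1 in dKO3, and 1 and 0 in dKO4. Of all tested genes, 8.26% in dKO1 and 2.60% to 2.75% in dKO2 to dKO4 were more than 2-fold away in either direction. In 20 of the 36 (55.6%) dKO1 was above the other 7 libraries, as it was in 24.0% of all genes, and in 4 (11.1%), Ggt1, Gpx1, Gpx4 and Gstz1, it was below them, as in 22.3% of all genes. Beside the Y-linked, Xist and sex-biased genes given above, 5 markers of the late proximal tubule summed to 641 CPM in dKO1, 2906 to 3604 CPM in dKO2 to dKO4 and 3794 to 4520 CPM in WT. Of these 5, Slc7a13 is also among the male-biased genes, 4 were lower in dKO1 than in any other library, and Slc5a1 was higher there, at 134 CPM in dKO1, 101 to 108 CPM in dKO2 to dKO4 and 75.6 to 83.8 CPM in WT. The 7 principal cell markers summed to 1686 CPM in dKO1, 648 to 767 CPM in dKO2 to dKO4 and 515 to 621 CPM in WT. Most of the sum in dKO1 was Aqp2, at 1234 CPM in dKO1, 339 to 408 CPM in dKO2 to dKO4 and 225 to 314 CPM in WT. Aqp4, Scnn1b and Scnn1g were also highest in dKO1, while Aqp3, Fxyd4 and Avpr2 were not. The 6 early proximal markers summed to 3541 CPM in dKO1, 4219.6 to 4576 CPM in dKO2 to dKO4 and 3974 to 4448 CPM in WT. Among these 6, Slc22a6 was at 497 CPM in dKO1, 1133 to 1518 CPM in dKO2 to dKO4 and 1450 to 1579 CPM in WT. Slc5a2 and Slc22a8 were above the WT range in every dKO library, not in dKO1 alone. Slc5a2 was at 589 CPM in dKO1, 570 to 724 CPM in dKO2 to dKO4 and 428 to 531 CPM in WT. Slc22a8 was at 635 CPM in dKO1, 533 to 663 CPM in dKO2 to dKO4 and 372 to 438 CPM in WT. The part of these differences in the levels of the conjugation genes was not tested.

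**Figure D4:**
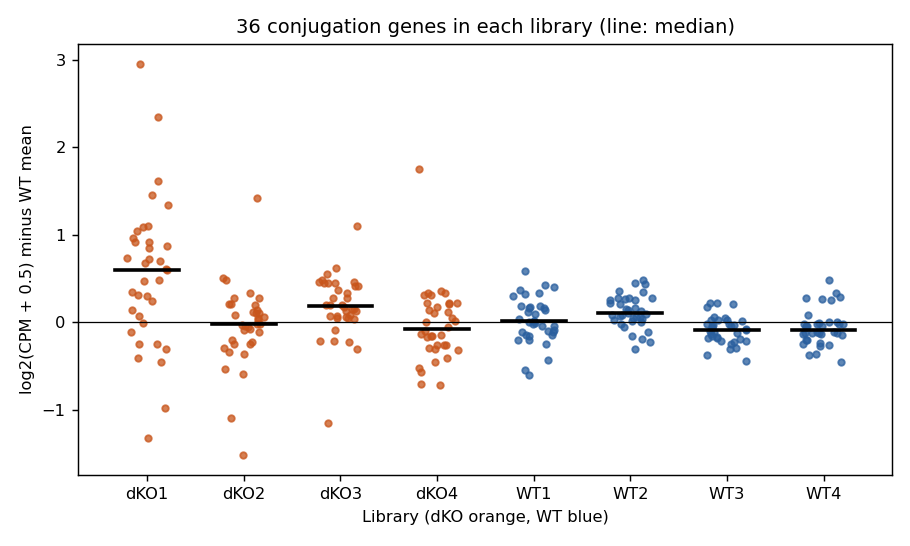
log2(CPM + 0.5) of each of the 36 tested conjugation genes minus its mean over the WT libraries, by library, with the median as a line. The median is 0.60 in dKO1 and between -0.09 and 0.18 in the other 7 libraries.

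The steps on either side of conjugation were followed in 8 lists of related genes. Of 13 tested genes of glutathione breakdown and mercapturate formation, 1 was higher and 0 were lower with all 8 libraries by edgeR. At an unadjusted p under 0.05, 3 were higher and 7 lower, where 16.8% of all genes passed in either direction. DESeq2 called 1 higher and 4 lower, with 3.22% and 2.88% of all genes, and limma-voom called none. The list had a median log2 fold change of -0.41, against 0.01 over all genes. Without dKO1 the middle of the 13 values was -0.21 (Anpep). Then 1 gene was higher and 3 were lower by edgeR, with 1.88% and 2.02% of all genes. In 6 of the 13 every dKO library was below WT, and in 1 above, where 6.06% of all genes were in each direction. Among the 6, Ggct (up to 47.54 CPM in dKO, from 47.55 CPM in WT) and Chac2 (up to 24.95 CPM in dKO, from 25.56 CPM in WT) were only narrowly apart. The gene that rose was Acy1, an aminoacylase that removes acetyl groups from N-acetyl amino acids, at 204, 221, 285 and 249 CPM in dKO1 to dKO4 and 146, 194, 156 and 144 CPM in WT1 to WT4 (0.58 ± 0.13, adjusted p = 0.0478). Its adjusted p was 0.0109 without dKO1, 0.0944 without dKO4 and 0.0277 without both, and 10 of 17 alternatives lost the call. The genes below are named after their values were seen.

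Nat8, which acetylates cysteine conjugates to mercapturates, was at 50.1, 139, 163 and 129 CPM in dKO1 to dKO4 and 225, 272, 207 and 223 CPM in WT1 to WT4. Kyat1, a cysteine conjugate β-lyase that competes for the same conjugates, was at 55.0, 127, 98.5 and 115 CPM in dKO1 to dKO4 and 176, 176, 167 and 169 CPM in WT1 to WT4. Lap3, a leucine aminopeptidase, was at 245, 494, 457 and 469 CPM in dKO1 to dKO4 and 602, 642, 611 and 566 CPM in WT1 to WT4. In all 3 genes the groups did not overlap and dKO1 was lowest. With all libraries none passed by edgeR (log2 fold changes -0.95 ± 0.31, -0.80 ± 0.22 and -0.54 ± 0.19, adjusted p = 0.176, 0.103 and 0.187). DESeq2 with all libraries called Nat8 and Kyat1 (adjusted p = 0.0173 and 0.00714) but not Lap3 (adjusted p = 0.0714). Without dKO1 all 3 fell by edgeR, by 0.69, 0.60 and 0.36 on the log2 scale (adjusted p = 0.00576, 0.00427 and 0.0247). Without dKO1 and dKO4 together Nat8 and Kyat1 kept the call (adjusted p = 0.0237 and 0.0150) and Lap3 did not (-0.35, adjusted p = 0.0855), and Lap3 passed in 1 of 17 alternatives.

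Cndp2, which splits cysteinylglycine after γ-glutamyl transferase has acted, was at 152, 893, 797 and 277 CPM in dKO1 to dKO4 and at 1906, 2009, 1736 and 1832 CPM in WT1 to WT4. The dKO libraries fell into a lower pair, dKO1 and dKO4, and an upper pair, all below WT. By edgeR the log2 fold change was -1.82 ± 0.53 (adjusted p = 0.137) with all libraries, and -1.15 ± 0.10 (adjusted p = 0.000147) without dKO1 and dKO4. DESeq2 called Cndp2 with all libraries (adjusted p = 0.00924). The brush-border peptidases Dpep1 (148 to 200.01 CPM in dKO, 127 to 158 CPM in WT) and Anpep (221 to 264 CPM in dKO, 230.4 to 310 CPM in WT) had overlapping groups. Kyat3 went the other way from Kyat1, at 48.0 to 76.2 CPM in dKO and 41.4 to 51.1 CPM in WT (0.48 ± 0.14, adjusted p = 0.128). Acy3, the most abundant gene of the list (2007 FPKM), had 771 to 3296 CPM in dKO and 2867 to 4411 CPM in WT (-0.47 ± 0.40).

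**Figure D5:**
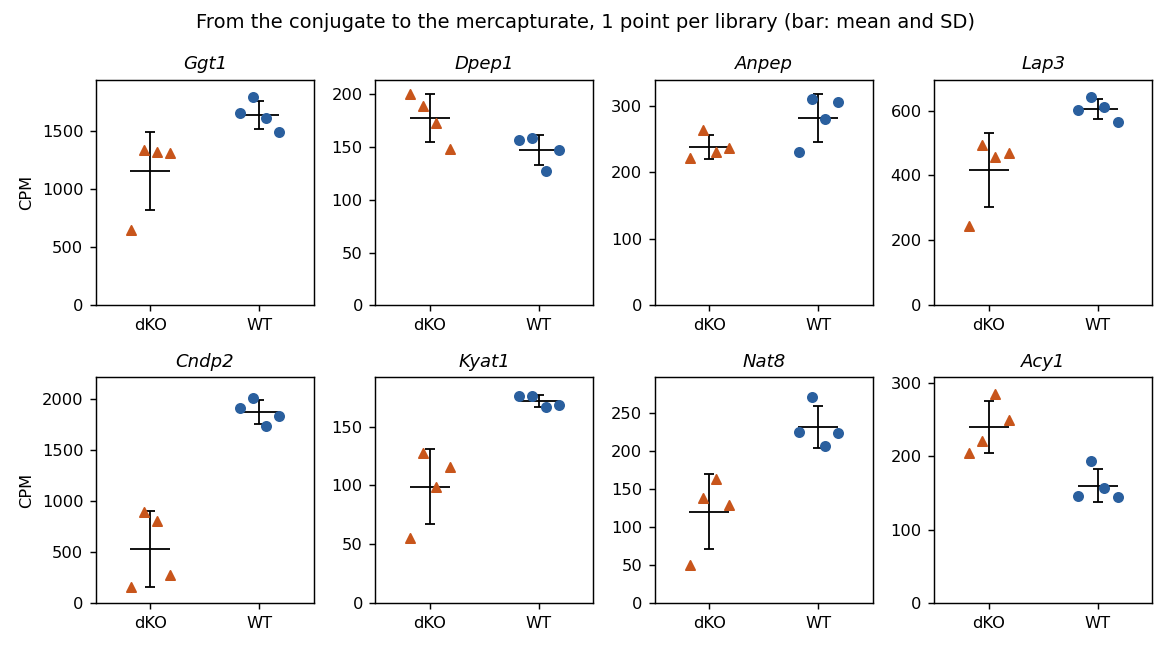
CPM of Ggt1 and 7 genes that act after it on glutathione conjugates, with 1 point per library and a bar for the mean and SD, dKO left and WT right. The groups do not overlap for Ggt1, Lap3, Cndp2, Kyat1 and Nat8, with dKO below, and for Acy1, with dKO above.

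On the sulfate side, 14 genes of sulfate uptake and PAPS supply were tested, of which 0 were higher and 1 was lower by edgeR (5 and 3 at an unadjusted p under 0.05, 1 and 2 by DESeq2, 0 and 1 by limma-voom). Of all genes, 1.16% and 1.12% were higher and lower by edgeR, 3.22% and 2.88% by DESeq2, and 16.8% passed at an unadjusted p under 0.05. Papss1, a PAPS synthase, fell to 109, 129, 120.1 and 109.5 CPM in dKO1 to dKO4, against 151, 164.0, 172 and 156 CPM in WT1 to WT4 (-0.46 ± 0.08, adjusted p = 0.0203). Its call held without dKO1 (adjusted p = 0.0158) and was lost without dKO4 (-0.43, adjusted p = 0.0533), without both (-0.37, adjusted p = 0.0710) and without WT2, WT3 or WT4 (adjusted p = 0.0584, 0.0760 and 0.0656). The second synthase, Papss2, had 401 to 442 CPM in dKO and 262 to 393 CPM in WT, above WT in every library without passing (0.45 ± 0.13, adjusted p = 0.116). In the other 6 lists, with 48 genes tested, 0 passed by edgeR (3 higher and 5 lower at an unadjusted p under 0.05, 1 higher and 1 lower by DESeq2, 0 by limma-voom), against the same shares of all genes. These were glutathione synthesis (6 genes tested), glutathione reduction and thiol transfer (9), other glutathione-dependent enzymes (8), sulfatases and tyrosine sulfation (6), selenoprotein synthesis (10) and other peroxide defence (9), with list medians between -0.12 and 0.04. Gclc, the catalytic subunit of the rate-limiting enzyme of glutathione synthesis, had 274 to 468 CPM in dKO and 275 to 425 CPM in WT. Txn1, thioredoxin, had 185 to 249.9 CPM in dKO and 223 to 295 CPM in WT, and Esd, which hydrolyses S-formylglutathione, had 315 to 373 CPM in dKO and 309 to 395 CPM in WT. Sumf1, which activates sulfatases, had 72.5 to 75.3 CPM in dKO and 77.6 to 95.9 CPM in WT, and the peroxiredoxin Prdx5 had 775 to 1231 CPM in dKO and 1129 to 1643 CPM in WT. Selenop, the selenium carrier, had 873, 2877, 2246 and 2232 CPM in dKO1 to dKO4 and 2528 to 2891 CPM in WT.

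Many glutathione S-transferase genes of rodents carry antioxidant response elements, the binding site of Nrf2 with small Maf proteins. The core TGACNNNGC was searched on both strands in the 250 bases before each RefSeq start site (GRCm38.p6). Of the 42 genes, 39 had an entry, with 56 windows in all. The core was in 6 windows of 5 genes (10.7% of the windows), against 10.2% of 32851 windows of all genes. The windows are shown with the core in capitals, since they name the genes of the families that hold it in these bases. Sequence farther from the start was not searched, so absence from the list says nothing about a gene.
Ggt1, first start: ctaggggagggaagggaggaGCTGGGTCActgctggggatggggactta
Ggt1, second start: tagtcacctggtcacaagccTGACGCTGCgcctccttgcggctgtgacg
Gsta3: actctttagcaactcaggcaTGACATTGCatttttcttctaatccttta
Gstm5: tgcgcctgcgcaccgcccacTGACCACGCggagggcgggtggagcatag
Gstm7: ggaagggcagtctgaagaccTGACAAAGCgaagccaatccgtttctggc
Mgst1: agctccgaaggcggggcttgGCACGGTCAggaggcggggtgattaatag
They lie at chr10:75568606-75568654 and chr10:75571457-75571505 (Ggt1), chr1:21240444-21240492 (Gsta3), chr3:107895792-107895840 (Gstm5), chr3:107931715-107931763 (Gstm7, gene on the minus strand) and chr6:138140451-138140499 (Mgst1). A match of letters is not a bound site.

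Several of these genes share sequence, so their counts cannot be fully told apart. The share of a gene's 50-base words that also occur in another gene's transcripts was 90.5% for Gsta1, 54.3% for Gstp2, 49.8% for Gsta2, 34.7% for Gpx4 (a pseudogene, Gpx4-ps2) and 33.7% for Gstp1 (Gstp2). It was 18.9% for Gstm1 and 12.5% for Gstt3. It was 0.723% for Sult1c2, and no word of Gsto1, Gstt1, Gsta4, Ggt1 or Gpx3 was shared. None of the 42 genes lies within 20 Mb of Tsc1 or Foxi1, and the nearest is Gpx3, 20.7 Mb from Foxi1.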

How the data were processed

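Whole-kidney poly(A) RNA-seq of 4 dKO and 4 WT samples was analysed. Per the labels, the authors aligned reads with HISAT2 2.0.4 and counted them with HTSeq 0.9.1, to a genome build not given in the sources used here. All 42 gene positions overlapped GRCm38 (GENCODE M21). The authors deposited raw counts and FPKM in 1 table. Another 8 columns per sample, counts divided by size factors, were not used, nor were the authors' own fold changes and p-values for the same comparison. The labels give no batch, litter, sex or animal, and p-values reflect only how far these samples differ, which may be technical.

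Genes were kept by filterByExpr (minimum count 10, minimum total 15), scaled by TMM and tested with edgeR 4.0.16 (robust quasi-likelihood, two-sided) in R 4.3.3, with Benjamini-Hochberg adjustment over 15912 genes and a threshold of 0.05. The SE is the log2 fold change divided by the root of F. The code was tested on simulated data. Alternatives were DESeq2 1.42.0, limma-voom 3.58.1, RLE factors, upper-quartile factors, no filter, a minimum of 1 CPM in 4 libraries, limma on log2 FPKM plus 1 or 0.1, each library left out, and dKO1 and dKO4 left out. A floor of 3 reads is 0.121 to 0.207 CPM.

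Genes are named if past the threshold with all libraries or without dKO1, dKO4 or both, if the groups do not overlap, if among the 12 with the highest FPKM or if leading a family. Pathway lists give genes past the threshold, or else the one with the highest FPKM. Gsta4 and other genes outside the rule were named after their values were seen. The genes and lists were chosen with earlier results of these data known.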

Additional observations from a re-analysis of the deposited data

Results flagged for a closer look

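Of 50 groups of 4 libraries screened (25 genes, CPM), 6 held a library whose gap to its nearest neighbour exceeded the 95% critical value of Dixon's gap ratio. Chance gives about 1 in 20 for groups chosen beforehand. The screened genes include some named after their values were seen, Gsta4 and Lap3 among them, so the count is only a description. In dKO, dKO1 was the highest library for Gsta2 (471 CPM) and Gsta4 (122 CPM), and the lowest for Ggt1 (649 CPM) and Lap3 (245 CPM). In WT, WT2 was the highest library for Gstp1 (133 CPM) and WT1 the highest for Gstz1 (288 CPM).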

How the results depend on the processing

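With all 8 libraries 1 conjugation gene was higher and 0 were lower. The count higher was 2 with DESeq2, 0 without a filter on low counts, 0 without dKO1 and dKO4 together, and 0 to 1 with each library left out. The count lower was 1 without dKO1 and dKO4 together. Of all tested genes, 363 passed, 971 with DESeq2 and 138 to 628 with each library left out. Signs turned in 6 of the 25 genes followed through the alternatives, and Gsta2, at 0.94 with all libraries, turned without dKO1. Some of the other tested genes turned as well. Gstp2 went from 0.40 to -0.58 without dKO1, and Sult1a1 from 0.39 to -0.079 without dKO1 and dKO4 together. With each library left out, the log2 fold change ran from -0.26 to -0.045 for Gpx4, -0.17 to 1.20 for Gsta2, -0.076 to 0.12 for Gstm5, -0.11 to 0.19 for Gstp1, -0.11 to 0.05 for Gstz1 and -0.14 to 0.13 for Sult1d1. Without dKO1 and dKO4 together it was 0.045 for Gpx4, -0.11 for Gsta2, 0.12 for Gstm5, 0.10 for Gstz1 and -0.077 for Sult1d1. Gstp1 was at 0.0058 and 0.0057 with FPKM plus 0.1 and 1, 0.011 with limma-voom and 0.0089 with upper-quartile factors. The cause was not tested. Sult1c2 passed in 9 of 17 alternatives. No paired analysis was possible because replicate numbers only follow the order of the samples. Low totals limit Sult5a1, and 4 libraries a group limit every value.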
